A study of Mus musculus with 9 samples.

Results

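The genes described here are the inhibitory receptors of mast cells and the enzymes and adaptors that carry out their signal: the receptors Fcgr2b, Cd300a and Lilrb4a, the phosphatases Inpp5d, Ptpn6 and Ptpn11, the adaptors Dok1 and Dok2, and the ubiquitin ligases Cbl and Cblb. They were chosen by name, and 9 of the 10 were measured among 15109 genes. Lilrb4a was not analysed here. All 9 passed into the test without any further filter, with 60 to 13140 counts per library. The cells were mast cells raised from wild-type C57BL/6 bone marrow over 4 or more weeks, in culture medium that held 20% fetal bovine serum and 30% supernatant of WEHI-3 cells, which secrete interleukin 3. Taxinine cells were sensitised with IgE against dinitrophenyl (DNP), given taxinine, a taxane diterpenoid of yew, for 1 h, and stimulated with DNP coupled to bovine serum albumin (DNP-BSA), the antigen that crosslinks the IgE. BSA cells were sensitised and stimulated in the same way without taxinine, and Control cells are labelled untreated. Whether Control cells were given IgE is not stated, so in BSA relative to Control sensitisation and antigen cannot be told apart. Each group had 3 libraries, and all cells shared the strain, the genotype and the culture medium. Neither the dose of taxinine nor the time with antigen is given, and there is no group with solvent or taxinine alone. Whether replicates are separate animals or cultures is not stated, so p-values rest on a spread between samples that may be technical.

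When antigen crosslinks IgE on the high-affinity receptor of a mast cell, the kinase Lyn phosphorylates the receptor's activation motifs and Syk is recruited. Inhibitory receptors carry a different tyrosine motif (an ITIM) in their tail, which, once phosphorylated, binds phosphatases. SHIP-1, encoded by Inpp5d, removes a phosphate from the membrane lipid made by phosphoinositide 3-kinase, while SHP-1 (Ptpn6) and SHP-2 (Ptpn11) remove phosphate from tyrosines. Dok adaptors bring the GTPase-activating protein of Ras to the membrane, and Cbl ligases attach ubiquitin to activated receptors and kinases.

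The promoters of Fcgr2b, Ptpn6 and Ptpn11 are shown because these 3 genes were called in both comparisons with Control, with no overlap between the groups. Each run is the 250 bases before the start of the RefSeq gene on GRCm38.p6, on the gene's own minus strand, and capitals mark matches to the motifs named after the sequences. In GENCODE M21, used for lengths, Fcgr2b spans chr1:170958617-170976547, so its printed run lies inside that gene and positions hold for the RefSeq start only.
Fcgr2b (chr1:170976072-170976321, minus strand): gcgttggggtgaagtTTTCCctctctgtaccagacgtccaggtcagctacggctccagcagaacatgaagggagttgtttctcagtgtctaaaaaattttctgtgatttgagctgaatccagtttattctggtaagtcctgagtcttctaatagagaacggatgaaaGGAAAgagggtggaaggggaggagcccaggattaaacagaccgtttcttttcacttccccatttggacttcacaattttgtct
Ptpn6 (chr6:124738710-124738959, minus strand): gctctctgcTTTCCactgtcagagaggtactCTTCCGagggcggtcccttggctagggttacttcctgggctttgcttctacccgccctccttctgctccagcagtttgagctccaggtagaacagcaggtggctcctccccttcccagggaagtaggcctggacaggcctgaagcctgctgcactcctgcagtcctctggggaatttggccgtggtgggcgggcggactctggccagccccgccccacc
Ptpn11 (chr5:121191398-121191647, minus strand): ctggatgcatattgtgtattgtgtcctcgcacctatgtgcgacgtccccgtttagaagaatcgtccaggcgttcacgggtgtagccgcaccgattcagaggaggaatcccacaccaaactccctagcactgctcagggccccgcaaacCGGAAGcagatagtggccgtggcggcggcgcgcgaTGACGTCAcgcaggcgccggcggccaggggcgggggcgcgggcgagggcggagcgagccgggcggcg
The motifs were searched on both strands of the window that runs from 250 bases before to 50 after the start, in 13491 promoters and in the 7 described genes with an entry (Fcgr2b, Cd300a, Inpp5d, Ptpn6, Ptpn11, Cbl and Cblb). The core of the NFAT site, GGAAA, was in 6 of these 7 and in 59.1% of all promoters. In Fcgr2b it lay at -235 to -231 on the opposite strand, where the printed strand reads TTTCC, and at -83 to -79. The ETS core CGGAAG was in 2 of the 7, Ptpn6 and Ptpn11, and in 29.5% of all promoters. In Ptpn6 the ETS core lay on the opposite strand at -219 to -214, and 1 NFAT core lay at -241 to -237. The cyclic AMP response element TGACGTCA was in 1 of the 7, at -67 to -60 of Ptpn11, and in 2.98% of all promoters. The AP-1 motif TGANTCA, the GATA motif AGATAA and the E-box CACGTG were in 0 of the 7, against 5.39%, 6.92% and 9.67% of all promoters. In the 3 printed promoters no match of 1 motif overlapped a match of another. A match describes letters only, and its absence says only that these letters are not in this window.

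Total counts ranged from 8975371 in Taxinine replicate 1 to 14116976 in Control replicate 2, and the biological coefficient of variation was 3.90%. A limit of 3 counts corresponded to 0.192 to 0.347 CPM and covers counting error only. Unless plain totals are named, CPM are reads of a gene after all libraries are brought to the same TMM-scaled total. The TMM-scaled total of a library is its total count times its TMM factor. The cells carried all 14 mast cell markers, led by carboxypeptidase Cpa3, with summed levels of 61890 to 63300 CPM in Taxinine, 61930 to 64290 CPM in BSA and 56450 to 58090 CPM in Control. Of 13 macrophage and monocyte markers, 12 were measured and 4 averaged over 1 CPM, and their summed level was 135 to 140.5 CPM in Taxinine, 179 to 181 CPM in BSA and 184.6 to 196.6 CPM in Control. The largest of them, Ccr2, averaged 57.1 CPM in Taxinine, 88.2 CPM in BSA and 112.5 CPM in Control, and Adgre1 averaged 47.5, 49.8 and 44.2 CPM in the same groups. Csf1r, the macrophage growth factor receptor, averaged 1.018, 0.869 and 0.758 CPM in these groups, and Mertk 0.0886, 0.193 and 0.0867 CPM. The 4 basophil markers summed to 1243 to 1264 CPM in Taxinine, 1340 to 1385 CPM in BSA and 1363 to 1385 CPM in Control. Their part in the differences below was not tested. The 3 measured eosinophil markers, led by Siglecf, summed to at most 30.7 CPM, and the measured neutrophil, T cell and B cell markers to at most 3.04 CPM for any of these lists. The dendritic cell markers summed to 40.6 to 48.0 CPM over all 9 libraries, and the erythroid and megakaryocyte markers to 1599 to 1768 CPM, of which the integrin gene Itga2b averaged 1677 CPM.

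Compared per length, SHIP-1 was the most abundant of the 9 measured transcripts and Dok2 the least. On the TPM scale, counts per length scaled to a common total over the annotated exons, computed with plain library totals, the level of Inpp5d was 376 ± 10.3 TPM in Taxinine, 377 ± 14.4 TPM in BSA and 429 ± 10.5 TPM in Control (SD, n = 3 each). Cd300a followed with 257 ± 2.99 TPM in Taxinine, 267 ± 3.46 TPM in BSA and 306 ± 3.49 TPM in Control. Ptpn6 came next, with 231 ± 1.82 TPM in Taxinine, 243 ± 10.4 TPM in BSA and 241 ± 13.5 TPM in Control. These 3 stood well apart from the rest, and no library of one overlapped the next. Differences between groups on this scale depend on the plain totals: with TMM scaling, Inpp5d and Cd300a were called in no comparison.

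Fcgr2b had 60.4 ± 1.85 TPM in Taxinine, 64.7 ± 5.09 TPM in BSA and 89.8 ± 3.50 TPM in Control, beside 59.8 ± 6.37, 68.1 ± 2.19 and 79.5 ± 5.18 TPM of Dok1 in the same groups. The libraries of Fcgr2b and Dok1 overlapped in Taxinine and in BSA, so their order there is not resolved, and did not overlap in Control. Below them came Ptpn11 with 45.9, 43.5 and 46.2 TPM in Taxinine, BSA and Control, then Cbl with 21.4, 20.6 and 22.0 TPM, Cblb with 13.98, 13.5 and 15.9 TPM, and Dok2 with 7.60, 9.03 and 11.0 TPM. Each of these neighbours was separated in every group on this exon length. With the longest annotated transcript as the length, Ptpn6 at 216 TPM passed Cd300a at 202 TPM in Taxinine. Ptpn6 also passed Cd300a in BSA, at 228 against 210 TPM, but not in Control, at 223 against 239 TPM. In Control, Cblb at 19.2 TPM then passed Cbl at 18.2 TPM. Fcgr2b stood at 76.0 TPM beside 46.3 TPM of Dok1 in Taxinine, and at 81.5 beside 52.8 TPM in BSA. The order of these pairs thus rests on the choice of length.

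**Figure D1:**
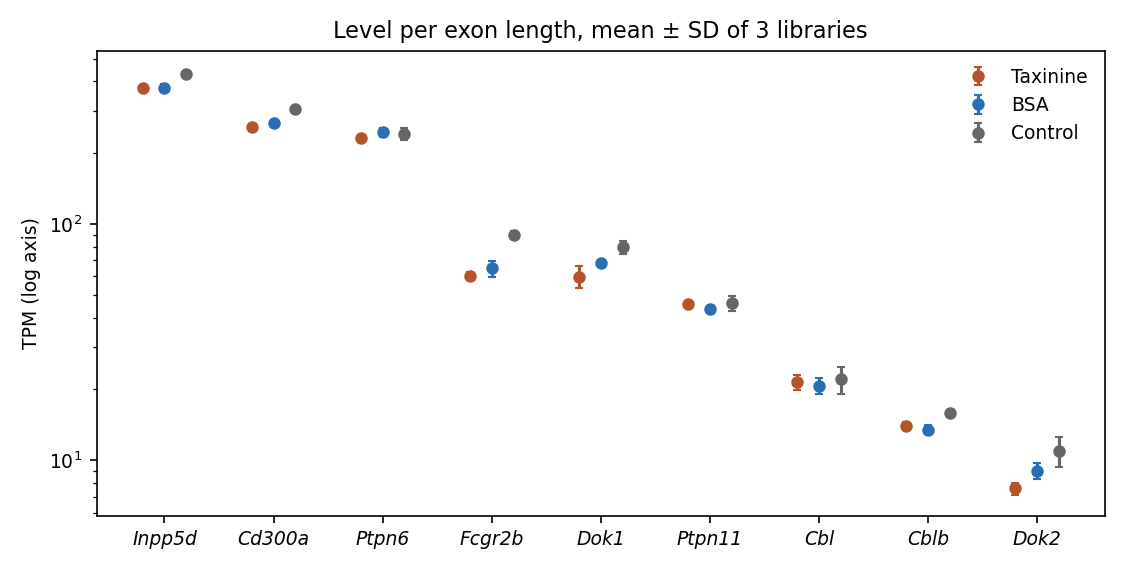
Level of the 9 measured genes per exon length, in TPM on a log axis, as mean ± SD of the 3 libraries of Taxinine, BSA and Control. Inpp5d lies at 376 TPM in Taxinine and 429 TPM in Control, and Dok2 lies at 7.60 TPM in Taxinine and 11.0 TPM in Control. TPM rest on plain library totals, and with TMM scaling neither gene was called between these groups.

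Fcgr2b encodes the inhibitory receptor for IgG complexes, which recruits SHIP-1 when it is brought together with the IgE receptor. Its level was 107, 101.3 and 104 CPM in the 3 Taxinine libraries, 108, 122 and 116 CPM in the BSA libraries, and 139, 132 and 134 CPM in the Control libraries. All 6 libraries of stimulated cells lay below all 3 Control libraries, and the Taxinine libraries lay below the BSA libraries, the nearest pair being Taxinine replicate 1 and BSA replicate 1. Fcgr2b fell by 0.23 ± 0.05 on the log2 scale in BSA relative to Control (edgeR quasi-likelihood test, Benjamini-Hochberg adjusted p = 0.000262), a level 14.6% lower. In Taxinine relative to Control it fell by 0.37 ± 0.05 on the log2 scale (adjusted p = 7.12e-08). The difference of Taxinine from BSA, -0.15 ± 0.05 on the log2 scale, missed the threshold (adjusted p = 0.0779), with an interval of -0.25 to -0.05, and passed it in 1 of 19 alternative settings. That setting left out BSA replicate 1 and gave -0.20 (adjusted p = 0.0252). Both differences from Control were called in all 19 settings, with log2 fold changes of -0.45 to -0.18 in BSA and -0.58 to -0.35 in Taxinine.

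Near it on chromosome 1 lies Fcgr3, the activating low-affinity IgG receptor that signals through the same gamma chain as the IgE receptor. Fcgr3 had 42.8, 37.0 and 37.3 CPM in Taxinine, 42.9, 38.4 and 44.7 CPM in BSA, and 58.6, 60.2 and 61.6 CPM in Control. Every stimulated library lay below every Control library, and the Taxinine and BSA libraries overlapped. The log2 fold change of Fcgr3 was -0.52 ± 0.06 in BSA relative to Control (adjusted p = 6.47e-09) and -0.11 ± 0.07 in Taxinine relative to BSA (adjusted p = 0.409). Within each library, the ratio of Fcgr2b counts to Fcgr3 counts does not depend on how libraries are scaled. It was 2.49, 2.74 and 2.80 in Taxinine, 2.51, 3.19 and 2.60 in BSA, and 2.37, 2.19 and 2.18 in Control. All stimulated libraries lay above all Control libraries, by 0.29 on the log2 scale in BSA and by 0.25 in Taxinine. The two-sided exact permutation test gave p = 0.1 for each, the smallest value that 3 against 3 libraries allow, and 0.375 after adjustment over the 15 ratio tests. The activating receptor's transcript was thus lower by a larger ratio than the inhibitory one in the stimulated libraries, though this exact test cannot pass the threshold with 3 libraries a group.

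Cd300a encodes an inhibitory receptor for the phospholipids exposed on dying cells, which binds SHP-1 and SHP-2. It had 354, 366 and 367 CPM in Taxinine, 399, 378 and 392 CPM in BSA, and 368, 380 and 381 CPM in Control. The BSA and Control libraries overlapped, and the Taxinine libraries lay just under both. No comparison passed the test: the log2 fold change was 0.05 ± 0.04 in BSA relative to Control (adjusted p = 0.384), -0.10 ± 0.04 in Taxinine relative to BSA (adjusted p = 0.124) and -0.05 ± 0.04 in Taxinine relative to Control (adjusted p = 0.333). The interval of the Taxinine and BSA difference ran from -0.18 to -0.02.

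For the third receptor, Lilrb4a, whose product gp49B binds an integrin and recruits SHP-1, no value is given. A predicted gene, Gm49339 (ENSMUSG00000062593, chr10:51480612-51496613, plus strand, GRCm38), was looked at after its values were seen because 92.8% of its exon bases are shared with Lilrb4a and 6.1% with the neighbouring gene Lilr4b. Reads in those bases cannot be assigned to one of the 3 genes. Gm49339 had 4558, 4346 and 4400 CPM in Taxinine, 4330, 4774 and 4462 CPM in BSA, and 2722, 2441 and 2700 CPM in Control. The stimulated libraries were all above Control, by 0.79 ± 0.04 on the log2 scale in BSA (adjusted p = 1.94e-20) and by 0.76 ± 0.04 in Taxinine. Between Taxinine and BSA the libraries overlapped, and the difference of -0.03 ± 0.04 was not called (adjusted p = 0.775).

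Inpp5d, the gene of SHIP-1, had 818, 870 and 867 CPM in Taxinine, 860, 901 and 887 CPM in BSA, and 859, 841 and 838 CPM in Control. The BSA libraries lay above the Control libraries by a narrow margin, and the Taxinine libraries overlapped both. None of its differences was called: the log2 fold change was 0.06 ± 0.04 in BSA relative to Control (adjusted p = 0.231), -0.05 ± 0.04 in Taxinine relative to BSA (adjusted p = 0.506) and 0.01 ± 0.04 in Taxinine relative to Control (adjusted p = 0.878). With the deepest counts of the group, 7069 to 13140 per library, the interval for BSA relative to Control ran from -0.01 to 0.14. The ratio of Inpp5d counts to those of Inppl1, the gene of the related lipid phosphatase SHIP-2, was 35.2, 38.8 and 38.2 in Taxinine, 31.7, 36.9 and 36.0 in BSA, and 32.2, 30.6 and 28.0 in Control. The Taxinine libraries lay above all Control libraries by 0.30 on the log2 scale (two-sided exact permutation p = 0.1, adjusted 0.375), and the BSA libraries overlapped with both groups.

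Ptpn6 encodes SHP-1, the tyrosine phosphatase of blood cells that many ITIM receptors recruit. Its level was 192, 193 and 193 CPM in Taxinine, 206, 202 and 223 CPM in BSA, and 162, 186 and 177 CPM in Control. The 3 groups formed separate bands, BSA highest, Taxinine between and Control lowest. Ptpn6 rose by 0.26 ± 0.05 on the log2 scale in BSA relative to Control (adjusted p = 2.05e-05), a level 19.9% higher. Taxinine relative to Control gave 0.14 ± 0.05 (adjusted p = 0.0251), and Taxinine relative to BSA gave -0.12 ± 0.05, which was not called (adjusted p = 0.121). The Taxinine call against Control was lost when Control replicate 1 was left out (log2 fold change 0.09, adjusted p = 0.212), and also without Control replicate 3 or any 1 of the Taxinine libraries. Total counts (0.03 in BSA, -0.064 in Taxinine) and all 3 limma fits (0.04 to 0.09 in BSA, -0.062 to -0.0083 in Taxinine) ended both calls. Ptpn6 shares 7.0% of its exon bases with an antisense gene, Gm20531, which had 1 to 9 counts per library against 1660 to 2908 for Ptpn6. How strand was treated in the counting is not given in the sources used here.

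Ptpn11 encodes SHP-2, a phosphatase of many cell types that also acts positively downstream of growth factor receptors such as Kit. It had 100.6, 105 and 102 CPM in Taxinine, 103, 96.5 and 102 CPM in BSA, and 96.1, 87.3 and 86.0 CPM in Control. Stimulated libraries lay above Control, with BSA replicate 2 and Control replicate 1 nearly touching, and Taxinine and BSA overlapped. Ptpn11 rose by 0.16 ± 0.05 on the log2 scale in BSA (adjusted p = 0.0120) and by 0.19 ± 0.05 in Taxinine (adjusted p = 0.00363), both relative to Control. The BSA call was lost without BSA replicate 1 (log2 fold change 0.14, adjusted p = 0.0600) and without Control replicate 3 (0.13, adjusted p = 0.0966). Both calls were lost with total counts and with all 3 limma fits, 3 of these 4 settings giving values below 0 (-0.065 to -0.063 in BSA and -0.011 to -0.0094 in Taxinine). Between Taxinine and BSA the difference was 0.03 ± 0.05 (adjusted p = 0.830), with an interval of -0.08 to 0.13. The ratio of Ptpn6 to Ptpn11 counts was 1.91, 1.84 and 1.89 in Taxinine and 2.00, 2.09 and 2.18 in BSA, which did not overlap (two-sided exact permutation p = 0.1, adjusted 0.375). In Control the ratio was 1.69, 2.13 and 2.06, a spread that overlapped both other groups.

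**Figure D2:**
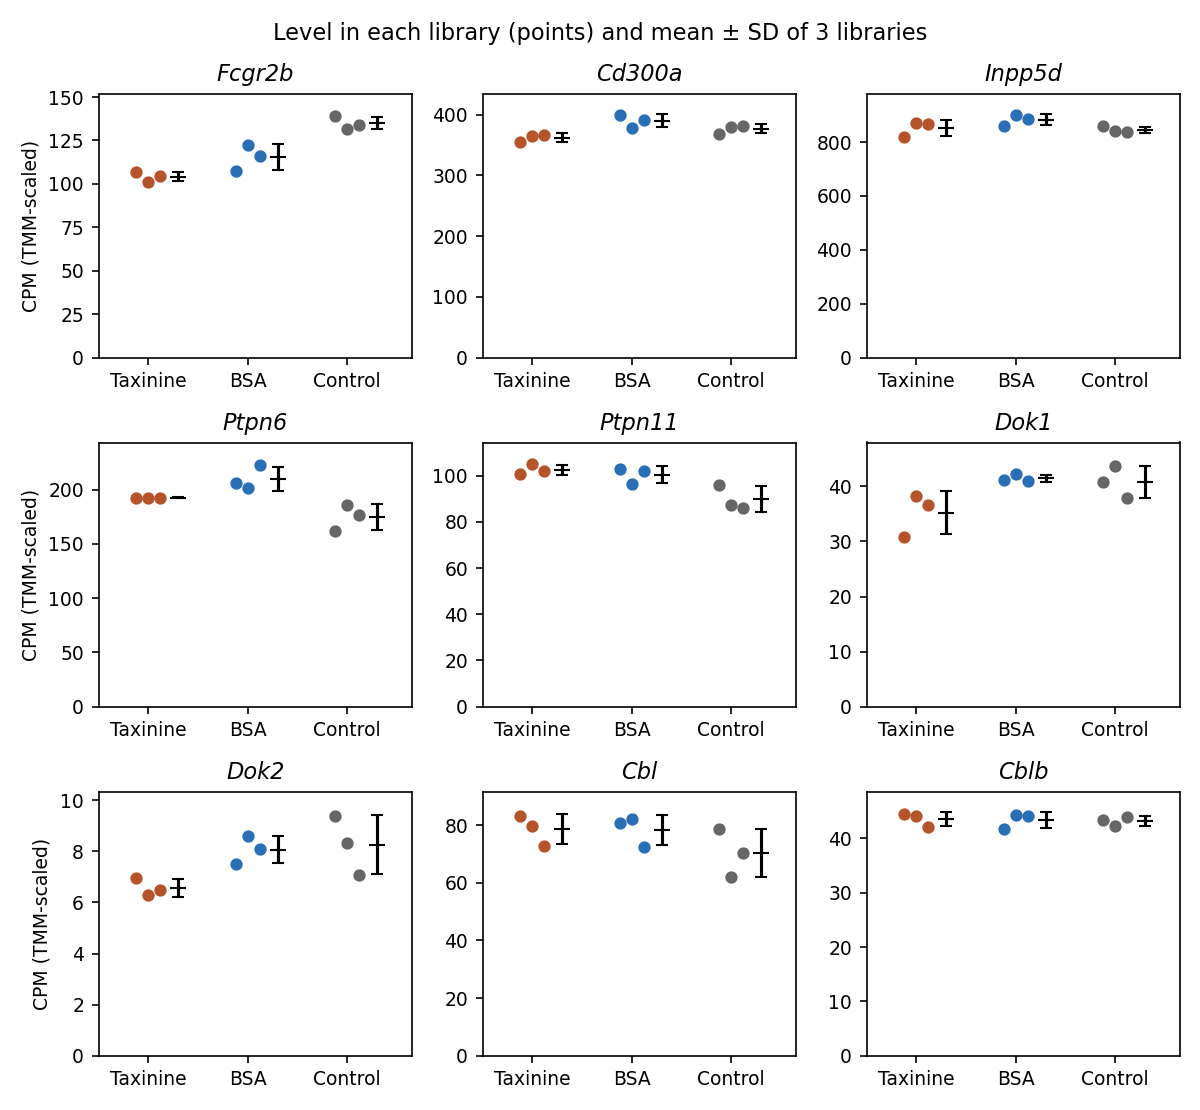
TMM-scaled level in CPM of each measured gene in the 3 libraries of Taxinine, BSA and Control (points) with mean ± SD, each panel on its own axis from 0. Fcgr2b lies at 101.3 to 107 CPM in Taxinine, below every Control library at 132 to 139 CPM, and Ptpn6 is highest in BSA at 202 to 223 CPM.

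Dok1 and Dok2 encode adaptors that dampen Ras signalling below tyrosine kinases. Dok1 had 30.8, 38.3 and 36.6 CPM in Taxinine, 41.1, 42.2 and 41.0 CPM in BSA, and 40.7, 43.8 and 37.9 CPM in Control. The Taxinine libraries lay below the BSA libraries, and Taxinine replicate 2 lay above Control replicate 3. The log2 fold change of Dok1 was -0.22 ± 0.07 in Taxinine relative to BSA, which just missed the threshold (adjusted p = 0.0562), and 0.02 ± 0.07 in BSA relative to Control (adjusted p = 0.852). It fell by 0.20 ± 0.07 on the log2 scale in Taxinine relative to Control (adjusted p = 0.0267), a call lost without Taxinine replicate 1, which had the lowest total (log2 fold change -0.12, adjusted p = 0.244), without Control replicate 2 (-0.15, adjusted p = 0.150) and by DESeq2 (adjusted p = 0.0713). The Taxinine difference from BSA was called in 5 of the 19 settings, among them a fit of these 2 groups alone (-0.23, adjusted p = 0.0377).

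Dok2 was the least abundant of the genes, with 60 to 142 counts per library. Its level was 6.94, 6.27 and 6.50 CPM in Taxinine, 7.52, 8.59 and 8.09 CPM in BSA, and 9.39, 8.32 and 7.07 CPM in Control. Taxinine libraries lay below all others, and BSA lay within the wide Control range. The log2 fold change of Dok2 was -0.30 ± 0.14 in Taxinine relative to BSA (adjusted p = 0.230) and -0.33 ± 0.14 in Taxinine relative to Control (adjusted p = 0.0563), neither of them called. At this depth the interval against BSA was -0.58 to -0.02, and without Control replicate 3 the difference from Control was called (-0.43, adjusted p = 0.0209), as it was with total counts (-0.54, adjusted p = 0.00115) and with both limma fits on plain totals (-0.46 and -0.49). BSA relative to Control gave -0.03 ± 0.13 (adjusted p = 0.875).

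Cbl and Cblb encode the E3 ubiquitin ligases c-Cbl and Cbl-b. Cbl had 83.1, 79.9 and 72.9 CPM in Taxinine, 80.8, 82.0 and 72.5 CPM in BSA, and 78.8, 62.0 and 70.2 CPM in Control. The 3 groups overlapped, Control replicate 2 being the lowest library. Cbl was called higher in BSA than in Control at the edge of the threshold, with a log2 fold change of 0.16 ± 0.06 (adjusted p = 0.0498). The call was lost in 13 of the 19 settings, among them the fit without Control replicate 2 (0.08, adjusted p = 0.388) and DESeq2 (0.17, adjusted p = 0.0980). Taxinine relative to Control gave 0.16 ± 0.07 (adjusted p = 0.0653), and was called without Control replicate 1 (0.24, adjusted p = 0.00237) or without Taxinine replicate 3 (0.21, adjusted p = 0.0294). Taxinine relative to BSA gave -0.0056 ± 0.07 (adjusted p = 0.980), with an interval of -0.14 to 0.12. Cblb was level across the groups, with 44.6, 44.1 and 42.2 CPM in Taxinine, 41.8, 44.3 and 44.1 CPM in BSA, and 43.4, 42.2 and 44.0 CPM in Control. Its log2 fold changes were 0.0050 ± 0.06 in BSA relative to Control (adjusted p = 0.964), 0.0051 ± 0.06 in Taxinine relative to BSA (adjusted p = 0.980) and 0.01 ± 0.06 in Taxinine relative to Control (adjusted p = 0.928), and the 3 intervals lay between -0.12 and 0.13.

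With TMM scaling, both SHP phosphatases were called higher and Fcgr2b lower in BSA than in Control. Only the Fcgr2b call held in all 19 alternative settings, and those of Ptpn6 and Ptpn11 ended with total counts and all 3 limma fits. In BSA relative to Control 3 of 9 were called higher (Ptpn6, Ptpn11 and Cbl) and 1 lower (Fcgr2b), while 34.0% of all genes were called, 16.2% higher and 17.8% lower. The share among the 9 is near that background. The median log2 fold change was 0.05 for the 9 genes and -0.0041 for all genes, and the absolute change of Ptpn6, the largest of the 9, exceeded that of 55.9% of all genes. The groups did not overlap for 4 of the 9 (Fcgr2b, Inpp5d, Ptpn6 and Ptpn11), against 42.9% of all genes, with 3 of them higher and 1 lower beside 20.2% and 22.7% of all genes. In bulk samples like these, fewer cells that express a gene and less of its RNA per cell cannot be told apart.

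None of the 9 genes passed the test between stimulated cells with and without taxinine. Between Taxinine and BSA, edgeR called 0 of 9, against 6.98% of all genes. DESeq2 and limma on the deposited log2 values also called 0, but they called only 813 and 247 of all 15109 genes. With so few genes called, 0 of 9 is near the background. At an unadjusted p under 0.05 there were 5, all lower in Taxinine: Fcgr2b, Cd300a, Ptpn6, Dok1 and Dok2. Of all genes 19.8% passed that level, 9.4% higher in Taxinine and 10.4% lower. The libraries of the 2 groups did not overlap for those same 5, against 23.9% of all genes, 11.5% higher and 12.4% lower. The median log2 fold change was -0.10 for the 9 genes and 0.0021 for all genes. The intervals of Inpp5d, Ptpn11, Cbl and Cblb included 0.

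Relative to Control, Taxinine had 2 of 9 called higher (Ptpn6 and Ptpn11) and 2 lower (Fcgr2b and Dok1), against 33.1% of all genes, 15.9% higher and 17.2% lower. The groups did not overlap for 5 of the 9, 2 of them higher and 3 lower, against 43.7% of all genes, 20.9% higher and 22.8% lower. The median log2 fold change was 0.01 for the 9 and -0.01 for all genes. This comparison shares its Control libraries with the first and its Taxinine libraries with the second.

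**Figure D3:**
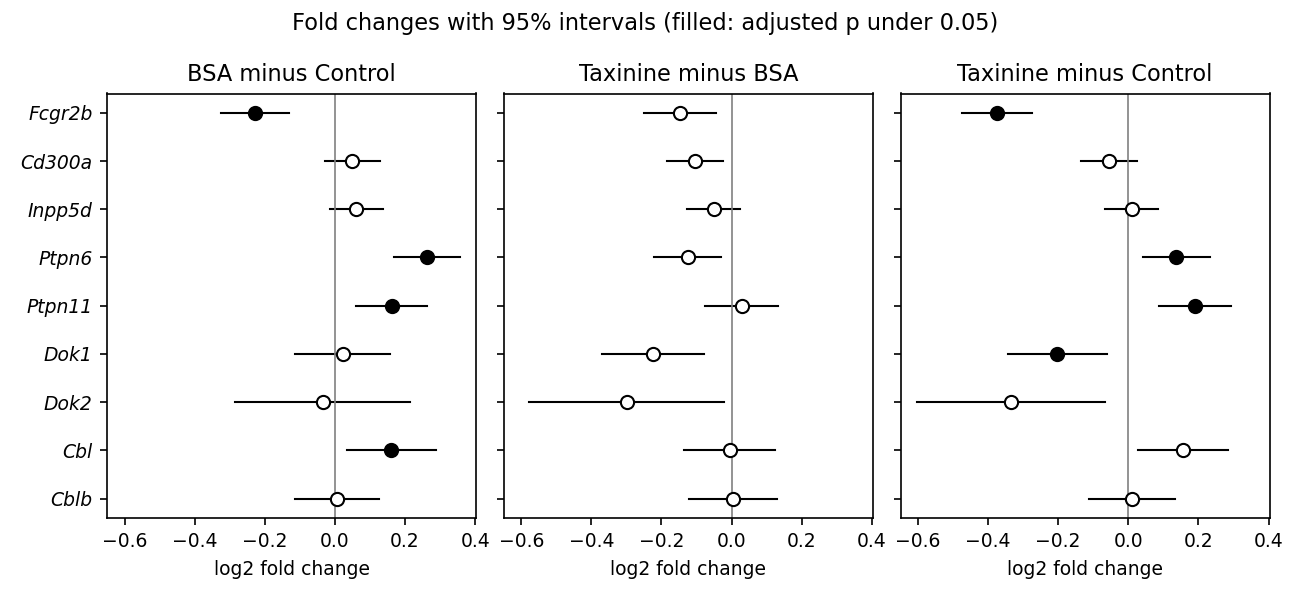
Log2 fold change of the 9 genes with 95% intervals in BSA minus Control, Taxinine minus BSA and Taxinine minus Control, filled where the adjusted p was under 0.05. Fcgr2b lies at -0.23, -0.15 and -0.37, Ptpn6 at 0.26, -0.12 and 0.14, and no point in the Taxinine minus BSA panel is filled.

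How libraries are scaled decides the direction of the smaller differences from Control. TMM, the scaling used above, set factors of 0.957 to 0.963 for Taxinine, 0.941 to 0.947 for BSA and 1.102 to 1.107 for Control. With plain total counts the median of all genes moved to -0.23 in BSA relative to Control and to -0.21 in Taxinine relative to Control, and the share of higher among called genes was 13.6% in BSA against 47.6% with TMM. In Taxinine relative to BSA that share was 57.6% with total counts and 40.9% with TMM. Under total counts Fcgr2b still fell in BSA relative to Control, at -0.45, the log2 fold change of Ptpn6 was 0.03 and not called (adjusted p = 0.577), that of Ptpn11 was -0.065 (adjusted p = 0.301), and Cd300a, Inpp5d, Dok1 and Cblb were called lower. This change of scaling moves all genes by about the same amount, so that Ptpn6 and Ptpn11 stay above the median of all genes and Fcgr2b below it by construction. DESeq2 size factors, which moved the median of all genes to 0.01, kept the calls made with TMM.

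**Figure D4:**
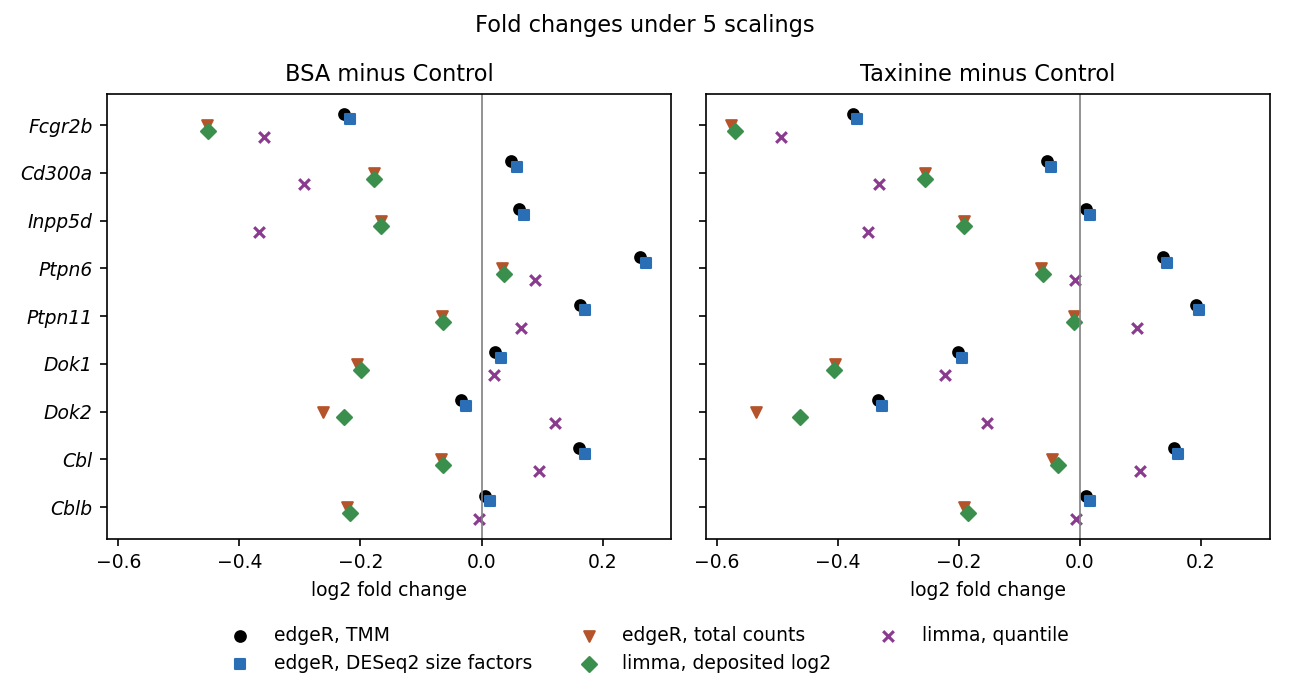
Log2 fold changes of the 9 genes in BSA minus Control and Taxinine minus Control under 5 scalings. Fcgr2b lies left of 0 in all 5, while Ptpn11 lies at 0.16 with TMM and at -0.065 with total counts in BSA minus Control.

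Other genes were counted from 6 lists of inhibitory genes, activating counterparts and signalling partners. The lists were written from general knowledge but with earlier results of these data known, so their counts are a description and no independent support. Up to 4 called genes of a list with the smallest p are named in each of the first 2 comparisons. The splits below hold for TMM: with limma on the deposited log2 values, scaled by plain totals, BSA relative to Control had 3 of the receptors higher and 6 lower, 1 of the phosphatases higher and 5 lower, 4 of the adaptors and kinases higher and 9 lower, 0 of the ubiquitin regulators higher and 5 lower, and 0 of the phosphatase partners higher and 2 lower. Of all 15109 genes, that limma fit called 1002 higher and 6192 lower in BSA relative to Control. Of 26 genes listed as other inhibitory receptors, 20 were measured. Whether each of them inhibits in these cells was not tested. In BSA relative to Control 8 were called higher and 2 lower, with a median log2 fold change of 0.19 beside -0.0041 for all genes. The highest was TIM-3, whose gene Havcr2 had 1239, 1243 and 1261 CPM in BSA against 252, 245 and 258 CPM in Control, a log2 fold change of 2.31 ± 0.04 (adjusted p = 1.31e-37). Cd33, a receptor for sialic acid, had 539, 619 and 534 CPM in BSA against 148, 134 and 143 CPM in Control, 1.99 ± 0.05 on the log2 scale. Both stood severalfold above Control in every library, a size none of the 9 genes came near. Siglecf, another sialic acid receptor and also the leading gene of the eosinophil list above, rose by 1.81 ± 0.13, and Cd84, a receptor of the SLAM family, by 0.34 ± 0.05. The Cd84 call was lost with total counts and with all 3 limma fits.

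With taxinine 6 of the 20 receptors were called lower than in BSA and 0 higher, with a median of -0.12 beside 0.0021 for all genes, where 4.12% of all genes were called lower and 2.86% higher. At an unadjusted p under 0.05 the counts were 10 lower and 0 higher, and by DESeq2 5 lower and 0 higher. Cd300lf, a relative of Cd300a, had 160, 156 and 158 CPM in Taxinine against 181, 186 and 184 CPM in BSA, a log2 fold change of -0.21 ± 0.05 (adjusted p = 0.00166). Pecam1, an adhesion receptor with ITIMs, fell by 0.17 ± 0.04 (adjusted p = 0.00436), the collagen receptor Lair1 by 0.28 ± 0.07 (adjusted p = 0.00700) and Sirpa, the receptor for CD47, by 0.19 ± 0.05 (adjusted p = 0.0103). For each of these 4 all Taxinine libraries lay below all BSA libraries. None of the 4 was called by limma, and Lair1 and Pecam1 were also lost without Taxinine replicate 2 and Sirpa without Taxinine replicate 3. Against Control, Taxinine had 5 of these receptors called higher and 3 lower, and by limma on the deposited values 3 higher and 7 lower.

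Of 14 activating counterparts 10 were measured, and by edgeR 0 were called higher and 3 lower in BSA relative to Control (median -0.05), with 0 higher at an unadjusted p under 0.05 and 0 by DESeq2. They were Fcgr3, described above, Pira1, an activating relative of Pirb, at -0.72 ± 0.22 with 1.90 to 2.46 CPM in BSA and 2.62 to 3.99 CPM in Control, and Fcgr1, the high-affinity IgG receptor and a macrophage marker, at -1.07 ± 0.40 with at most 1.39 CPM in any library. The Pira1 call was lost without Control replicate 3, and the Fcgr1 call by DESeq2 and without any 1 of 5 of the libraries compared. Between Taxinine and BSA 0 of 10 were called by edgeR (median -0.12), with 2 at an unadjusted p under 0.05, both lower, and 0 by DESeq2, and in Taxinine relative to Control 0 were higher by edgeR, by DESeq2 or unadjusted, and 3 were lower (9 by limma on the deposited values).

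Of 17 other phosphatases 16 were measured, and 7 were called higher and 1 lower in BSA relative to Control (median 0.09). Ptpn22, which acts with Csk on Src family kinases, had 55.6, 55.9 and 58.8 CPM in BSA against 24.1, 27.1 and 27.1 CPM in Control, a log2 fold change of 1.12 ± 0.06 (adjusted p = 1.23e-18). The tyrosine phosphatases Ptpn2 (0.27 ± 0.05), Ptpn12 (0.22 ± 0.04) and Ptpn1 (0.21 ± 0.05) also rose. With total counts none of these last 3 was called, and Ptpn12 and Ptpn1 had values below 0 (-0.0083 and -0.013). With taxinine, relative to BSA, Ptpn22 fell by 0.22 ± 0.06 (adjusted p = 0.0200). The call was lost without BSA replicate 3, without Taxinine replicate 1 or 2, and with all 3 limma fits. Relative to Control, 9 phosphatases were called higher and 2 lower in Taxinine, and by limma on the deposited values 1 higher and 4 lower.

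Among 24 other adaptors and kinases 21 were measured, and 6 were called higher and 5 lower in BSA relative to Control (median 0.02). Rabgef1, which limits IgE receptor signalling through Rab5 and ubiquitin, had 520, 533 and 516 CPM in BSA against 114, 102 and 105 CPM in Control, a log2 fold change of 2.29 ± 0.04 (adjusted p = 3.89e-36). The tyrosine kinase Fes rose by 1.57 ± 0.04, the adaptor Sla by 0.81 ± 0.04 and the adaptor Stap1 by 0.52 ± 0.05. Taxinine relative to BSA had 1 called higher and 4 lower (median -0.01): Fes was higher, at 617, 617 and 613 CPM in Taxinine against 498, 556 and 539 CPM in BSA (0.21 ± 0.04, adjusted p = 0.000460), and Spn, the sialomucin CD43, was lower, with a log2 fold change of -0.21 ± 0.04 (adjusted p = 0.000421). Sla (-0.20 ± 0.04) and Dok3 (-0.21 ± 0.05), the third Dok adaptor, also fell. Dok3 had 91.0, 90.03 and 98.3 CPM in Taxinine and 107, 110 and 107 CPM in BSA, so that all Taxinine libraries lay below all BSA libraries, as they did for Dok1 and Dok2. The Dok3 call was lost without Taxinine replicate 1 or 2, and none of these 4 was called by limma. The counts for Taxinine relative to Control were 5 higher and 5 lower, and by limma on the deposited values 4 higher and 12 lower.

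Of 16 other ubiquitin regulators 15 were measured, with 6 called higher and 1 lower in BSA relative to Control (median 0.08). The 4 with the smallest p were Ubash3b (0.17 ± 0.04), the Cbl-binding phosphatase Sts-1, the deubiquitinases Usp9x (0.23 ± 0.06) and Usp8 (0.18 ± 0.05), and the Cbl-binding adaptor Sh3kbp1 (0.17 ± 0.04). With total counts none of the 4 was called, and the values of Ubash3b (-0.054), Usp8 (-0.049) and Sh3kbp1 (-0.056) lay below 0. With quantile scaling in limma, Ubash3b was called lower in BSA (-0.16, adjusted p = 0.0314). Between Taxinine and BSA Ubash3b was the single gene called, at 328, 345 and 332 CPM in Taxinine against 393, 385 and 385 CPM in BSA (-0.21 ± 0.04, adjusted p = 0.000391), a call not made by limma. Against Control, 5 of the 15 were called higher in Taxinine and 1 lower, and by limma on the deposited values 0 higher and 5 lower.

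All 11 partners of the phosphatases were measured, with 4 called higher and 1 lower in BSA relative to Control (median 0.13). Gab2, the docking protein that binds SHP-2 in mast cells, rose by 0.17 ± 0.04, its relative Gab3 by 0.38 ± 0.08 and the adaptor Crk by 0.23 ± 0.05, while Crkl, the close relative of Crk, fell by 0.35 ± 0.06. With total counts the Crkl call was kept, Gab3 and Crk were not called, and Gab2 had a value of -0.054. With quantile scaling in limma, Gab2 was called lower in BSA (-0.17, adjusted p = 0.0403). Relative to BSA, Gab2 fell in Taxinine by 0.16 ± 0.04 (adjusted p = 0.0123) and Crkl rose by 0.21 ± 0.06 (adjusted p = 0.0240). These 2 comparisons share the BSA libraries. The Gab2 call was lost without BSA replicate 1 and the Crkl call without BSA replicate 3, each also without single Taxinine libraries and with all 3 limma fits. Of the 11 partners, 4 were called higher and 0 lower by edgeR in Taxinine relative to Control, with 2 lower at an unadjusted p under 0.05 and 0 by DESeq2, while limma on the deposited values turned the split to 0 higher and 4 lower.

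**Figure D5:**
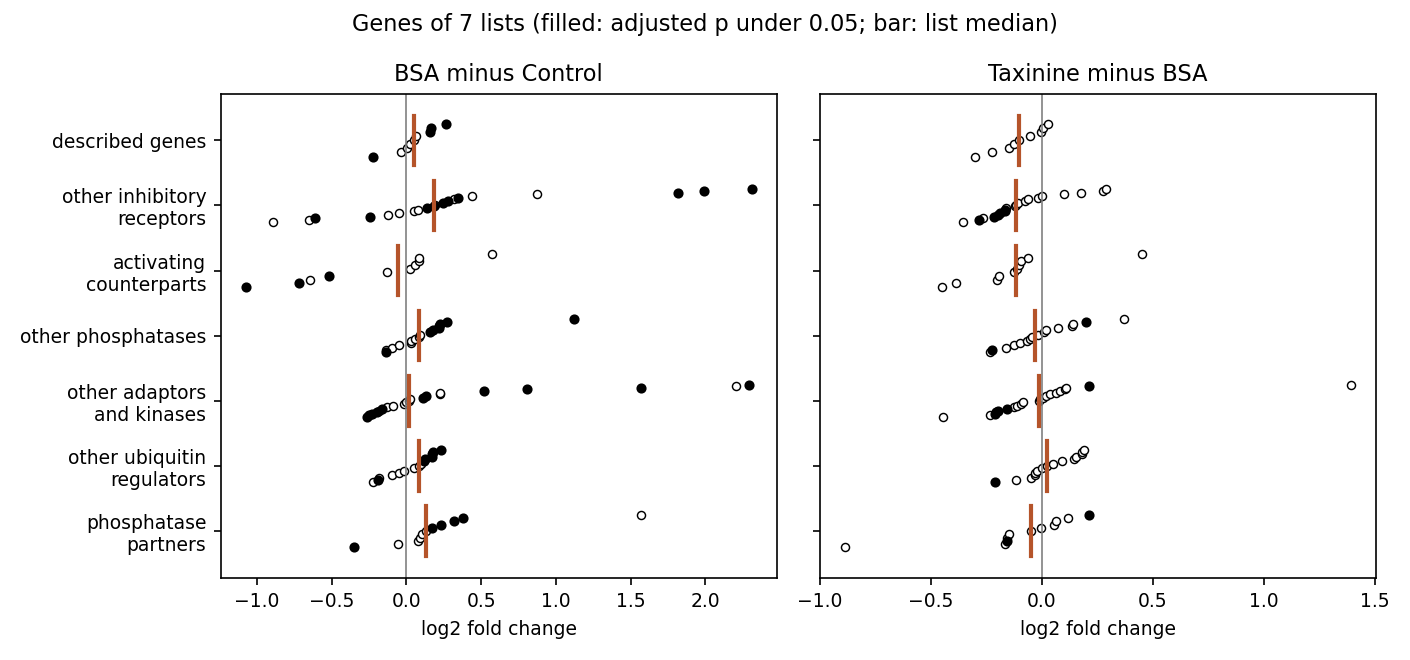
Log2 fold changes of the measured genes of the described set and of 6 further lists in BSA minus Control and Taxinine minus BSA, filled where the adjusted p was under 0.05, with a bar at each list's median. Havcr2 at 2.31 and Rabgef1 at 2.29 lie farthest right among called genes in the first panel, and the described genes stay between -0.23 and 0.26 there.

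The genes most like Fcgr2b over the 9 libraries, among 5380 genes whose mean in the deposited log2 table was 5 or more, were Krba1 (Pearson r = 0.996), Apobec3, which restricts retroviruses (r = 0.984), and Itgb3, the integrin beta 3 subunit (r = 0.983). Krba1 averaged 174 ± 4.35 CPM in Taxinine, 202 ± 21.3 CPM in BSA and 253 ± 8.51 CPM in Control, so it too was lowest in Taxinine and highest in Control. For Inpp5d the most like were Actr1b, a dynactin subunit (r = 0.871), Ece1, the endothelin-converting enzyme (r = 0.859), and Pprc1, a transcriptional coactivator (r = 0.846). Among the 9 genes the strongest pairs were Fcgr2b with Ptpn11 (r = -0.825) and Fcgr2b with Dok2 (r = 0.750). These correlations describe the 9 libraries, which fall into 3 groups and share their scaling, and they carry no test.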

How the data were processed

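RNA of 9 samples, 3 each of Taxinine, BSA and Control, was sequenced as stranded libraries of paired reads of 101 bases, per the labels. Reads were aligned with STAR 2.7.0f, builds mm10 and GRCm38 and limma 3.11 are also named, per the submitters' processing notes. Which annotation and counting program were used and with which strand setting is not stated in any source at hand. The count table the authors deposited is named as TMM-normalised but holds whole numbers whose totals times TMM factors range from 8641756 to 15628904, so it was taken as unscaled reads per gene. Their deposited log2 values are those of CPM plus 1 over plain library totals, to within 5.0e-05.

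Counts of 15109 genes were tested with edgeR 4.0.16's quasi-likelihood test (R 4.3.3) with TMM factors, 1 fit over 9 libraries and Benjamini-Hochberg adjustment over all genes. Calls were made below an adjusted p of 0.05. Fold changes are log2 values with standard errors, and intervals are 95%. The alternatives, 19 for each fold change, were other scalings, DESeq2 1.42.0, limma 3.58.1 on log2 values, a filter on low counts, 2 groups only, a replicate block and each library left out. Coordinates and lengths come from GENCODE M21, which held 15106 of the identifiers, and promoters from RefSeq. In a simulation of BSA minus Control with 50 changed genes at each size, the test recovered 56% of genes changed 1.25-fold and 86% of those changed 1.5-fold, and called 4 of 14909 unchanged genes. It changed 200 genes without very low counts, up and down in equal number, while 34.0% of all genes were called in the data. These recovery shares therefore need not hold for the real comparison. Replicates differed by more than sampling noise (chi-square per degree of freedom 1.57 to 4.11), so none was counted as a copy.

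The genes described and all lists were chosen with earlier results of these data known. Named list genes are up to 4 called genes with the smallest p in each comparison, and for Fcgr2b and Inpp5d the 3 genes with the highest Pearson r, predicted genes left out. For Taxinine relative to Control list counts alone are given. Protein motifs, planned as a description, and the Lilrb4a to Lilr4b ratio were not used here. A list gene that the naming rule picks is not reported here.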

Additional observations from a re-analysis of the deposited data

How the results depend on the processing

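Fcgr2b kept its direction and its call against Control in all 19 alternatives, in BSA and in Taxinine, and the 10 list genes called in every alternative in BSA relative to Control were among the 23 named there; of those named in Taxinine relative to BSA 0 were, and 0 changed direction. Direction turned mainly where libraries were scaled by plain totals (total counts in edgeR, limma on the deposited log2 values, limma on log2(CPM + 0.5)). In BSA relative to Control these gave log2 fold changes of -0.18 for Cd300a and -0.17 for Inpp5d in each, -0.065, -0.063 and -0.064 for Ptpn11, -0.066, -0.064 and -0.065 for Cbl, -0.21, -0.20 and -0.20 for Dok1, and -0.22, -0.22 and -0.22 for Cblb. They also gave -0.054 for Gab2 and Ubash3b, -0.049, -0.047 and -0.048 for Usp8, -0.056 (-0.055 in limma on the deposited values) for Sh3kbp1, -0.013, -0.012 and -0.012 for Ptpn1, and -0.0083, -0.0085 and -0.0086 for Ptpn12. In Taxinine relative to Control they gave -0.19 for Inpp5d, -0.064, -0.061 and -0.062 for Ptpn6, -0.011, -0.0094 and -0.0094 for Ptpn11, -0.046, -0.036 and -0.036 for Cbl, and -0.19, -0.18 and -0.19 for Cblb, and in Taxinine relative to BSA 0.020, 0.029 and 0.029 for Cbl. With limma after quantile scaling, BSA relative to Control gave -0.29 for Cd300a, -0.37 for Inpp5d, 0.12 for Dok2, -0.0049 for Cblb, -0.17 for Gab2 and -0.16 for Ubash3b, the first 2 and last 2 of these called lower. The same fit gave -0.35 for Inpp5d, -0.0083 for Ptpn6 and -0.0064 for Cblb in Taxinine relative to Control, and 0.017 for Inpp5d, 0.0042 for Cbl, -0.0016 for Cblb and 0.063 for Gm49339 in Taxinine relative to BSA. The cause was not tested.

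Genes called in BSA relative to Control were 7977 with total counts, and in Taxinine relative to BSA 247, 236 and 204 with limma on deposited, quantile-scaled and log2(CPM + 0.5) values. Of the 9 genes, 0 were called higher relative to Control under total counts and all 3 limma fits, in BSA and in Taxinine. Of all 15109 genes these fits called 987 to 1630 higher in BSA and 1031 to 1726 in Taxinine. Called lower in BSA relative to Control were 5 of the 9 with total counts, 4 with each plain limma fit and 3 with quantile scaling. Of all genes 6896 were called lower there with total counts, 6192 and 6016 with the plain limma fits and 2668 with quantile scaling. In Taxinine relative to Control 6 of the 9 were called lower with total counts and with each plain limma fit, and 1 with DESeq2. Of all genes 6280, 5662, 5513 and 2014 were called lower there, in the same order. Same-numbered libraries did not deviate together (r of -0.126 to 0.113 over 11050 genes). With so few libraries and their origin not stated, this cannot decide whether the numbers pair the samples. The fit with a replicate block called 5078 genes in BSA relative to Control, 1093 in Taxinine relative to BSA and 4972 in Taxinine relative to Control. In Taxinine relative to BSA 1 of the 9 genes, Dok1, was called lower under the block (adjusted p = 0.0470) and also with 2 groups only, and Cbl had 0.0010.

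With each library left out in turn, the genes called in Taxinine relative to BSA ranged from 616 to 1281. Of the 9 genes, 1 to 3 were called higher in BSA and 1 to 2 higher and 1 to 3 lower in Taxinine, each relative to Control, and 0 to 1 lower in Taxinine relative to BSA. Values that changed sign ranged, in BSA relative to Control, from -0.028 to 0.076 for Dok1, -0.13 to 0.066 for Dok2 and -0.011 to 0.033 for Cblb. In Taxinine relative to BSA they ranged from -0.00045 to 0.048 for Ptpn11, -0.057 to 0.051 for Cbl, -0.023 to 0.032 for Cblb and -0.058 to 0.013 for Gm49339, and in Taxinine relative to Control from -0.0053 to 0.040 for Inpp5d and -0.0065 to 0.037 for Cblb. Log2 count ratios ranged from -0.11 to 0.066 for Fcgr2b/Fcgr3, -0.041 to 0.19 for Dok1/Dok2 and -0.073 to 0.046 for Cbl/Cblb in Taxinine relative to BSA, -0.0027 to 0.16 for Ptpn6/Ptpn11 and -0.047 to 0.11 for Dok1/Dok2 in BSA relative to Control, and -0.16 to 0.012 for Ptpn6/Ptpn11 in Taxinine relative to Control. Depth limits Dok2 most, at 60 to 142 counts per library.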
